A study of Mus musculus with 3 samples.

Results

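The genes described here encode glycolysis and the entry of its product, pyruvate, into mitochondria: glucose carriers, the glycolytic enzymes with their isozymes, lactate dehydrogenase, the pyruvate dehydrogenase complex and its kinases, and the lactate carriers. The set holds 33 genes, listed by their place in the pathway. Each gene was read by the probe set annotated to it alone that had the highest mean log2 signal over the 3 arrays. Such a probe set existed for 29 of the 33 genes, out of 18193 genes read in the same way. The other 4 were Gpi1, Pfkfb1, Gapdh and Eno1, of which Gapdh was read only by array control probe sets and by probe sets shared with its pseudogenes. All 29 lay above the floor used for low signals on each of the 3 arrays, and 20 of them exceeded a signal of 1000 on at least 1 array.

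The samples were mouse embryonic stem (ES) cells, pluripotent cells of the early embryo, from an experiment in which dex, as the labels write it, raises the transcription factor Gata6 in modified cells. Gata6 specifies primitive endoderm. The labels give 1 array for day 0, called the control, 1 for day 1 and 1 for day 2 of overexpression. Whether the day 0 cells carried the modification, the dose of dex, the parent line and its strain are not stated in the labels. With 1 array per day there was no replicate and no test between days was possible, so day and array cannot be told apart.

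Glycolysis splits glucose into pyruvate in the cytosol and yields ATP and building blocks. Hexokinase and phosphofructokinase commit the sugar, pyruvate kinase closes the pathway, and pyruvate is then either reduced to lactate and exported or burned in mitochondria through pyruvate dehydrogenase, which its kinases switch off. Most steps have several isozymes encoded by different genes, and mouse ES cells are known for a high glycolytic flux.

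The values are MAS5 signals, a brightness per probe set on a linear scale, scaled to a common trimmed mean. Signals under a floor of 54.0 were raised to it, and a call needed a 2-fold or wider difference with the brighter array above that floor. Signals of different probe sets cannot be set against each other, so isozymes are compared by their ratios between days. The error given with a log2 ratio is the SD between probe sets of the same gene at a similar signal. This SD shrank with brightness, being 0.49 below a signal of 200, 0.37 between 200 and 1000, 0.21 between 1000 and 5000, and 0.13 above 5000. It leaves out the spread between cultures.

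The 3 arrays had median signals of 84.2, 81.8 and 86.4 from day 0 to day 2. Gata6 read 110, 5573.5 and 6069.6 on days 0, 1 and 2, and the pluripotency factors Pou5f1 (4050.5, 1493 and 828) and Nanog (14630.6, 3442 and 1841) read lower on each day than on the one before. Markers of the labelled ES cells and of primitive endoderm were read. All 9 measured primitive endoderm markers, the overexpressed Gata6 itself among them, were higher on day 2 than on day 0. Their summed signals were 864, 58730 and 100942.5 from day 0 to day 2. Of 10 ES cell markers 8 were lower on day 2, with sums of 83149, 28311 and 20556. The other 2, Klf4 (7216, 7641 and 9672) and Dppa3 (125, 104 and 183), were higher on day 2 and within 2-fold. Klf4 was the largest part of the day 2 sum. Of 10 fibroblast markers, which would show feeder cells, 6 including Col1a1, Col3a1 and Dcn were at the floor on each array, and the list summed to 709, 448 and 475. Most of the day 0 sum was Thy1 (421, 75.4 and 50.5), while Twist1 (7.0, 88.9 and 113) was at least 2-fold higher on day 2. Of 7 trophectoderm markers compared, 4 were higher and 1 lower on day 2, and the list summed to 2995, 4795 and 10648. Most of the day 2 sum was the keratins Krt8 (567, 1552 and 5366) and Krt18 (556, 1594 and 3846). The other higher ones, Cdx2 (21.1, 80.0 and 121) and Gata3 (72.7, 91.6 and 162), were dim. Tfap2c was lower (885, 574 and 320), and Elf5 was under the floor on each array. Of 4 neural ectoderm markers compared, 2 were lower and 0 higher, with sums of 3623, 946 and 566. Most of the day 0 sum was Otx2 (2559, 599 and 223) and Tubb3 (826, 163 and 112). Nes (118, 94.3 and 106) and Pax6 (48.6, 40.3 and 74.9) were dim, and Sox1 and Zic1 were under the floor on each array. Of 5 mesoderm markers 1 was higher, with sums of 325, 272 and 443. Muscle and erythroid markers, listed because some isozymes are typical of those tissues, summed to 316, 359 and 254. In such bulk RNA, fewer cells of a type and less RNA per cell cannot be told apart, and the part of a changing cell mixture in the results below was not tested.

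On day 2 the pathway had not moved as a block. Aldoa, Tpi1, Pgk1, Pgam1 and Pkm of its trunk stayed within 2-fold of day 0, while isozymes of phosphofructokinase, lactate dehydrogenase and pyruvate dehydrogenase kinase moved apart. Of the 29 genes, 6 were at least 2-fold lower on day 2 than on day 0, namely Pfkp, Eno3, Ldhb, Pdk1, Pdk3 and Pdk4. That is 20.7% of them, against 10.1% of the 13865 genes compared. Pfkl, Pdk2 and Slc16a1 were at least 2-fold higher, 10.3% of the 29, which is near the 11.0% of all genes. The other 20 had log2 ratios from -0.92 to 0.43. The median log2 ratio was -0.27 over the 29 genes and -0.05 over all genes compared.

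By day 1 fewer had moved. Pfkp, Ldhb and Pdk1 were at least 2-fold lower on day 1 than on day 0, 10.3% of the 29 against 6.58% of 13602 genes. Pdk2 was the only one at least 2-fold higher, 3.45% against 6.0%. The median was -0.15 over the 29 genes and -0.04 over all. Between day 2 and day 1, Slc16a1 was higher (3.45%, against 5.61% of 13468 genes) and Pdk4 lower (3.45%, against 3.67%), with a median of -0.24 over the 29 genes and -0.01 over all. The signal was lower at each step, day 1 under day 0 and day 2 under day 1, in 18 of the 29 genes, small differences included, and this held for 25.1% of all measured genes. It was higher at each step in 6 of the 29, or 20.7%, near the 21.2% of all measured genes. Equal values at a step, which the floor can produce, were found in 10.1% of all measured genes and in 0 of the 29. The shares of the 29 and of all genes therefore do not compare like with like. The 3 comparisons share arrays, so their values are given side by side and are not independent.

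**Figure D1:**
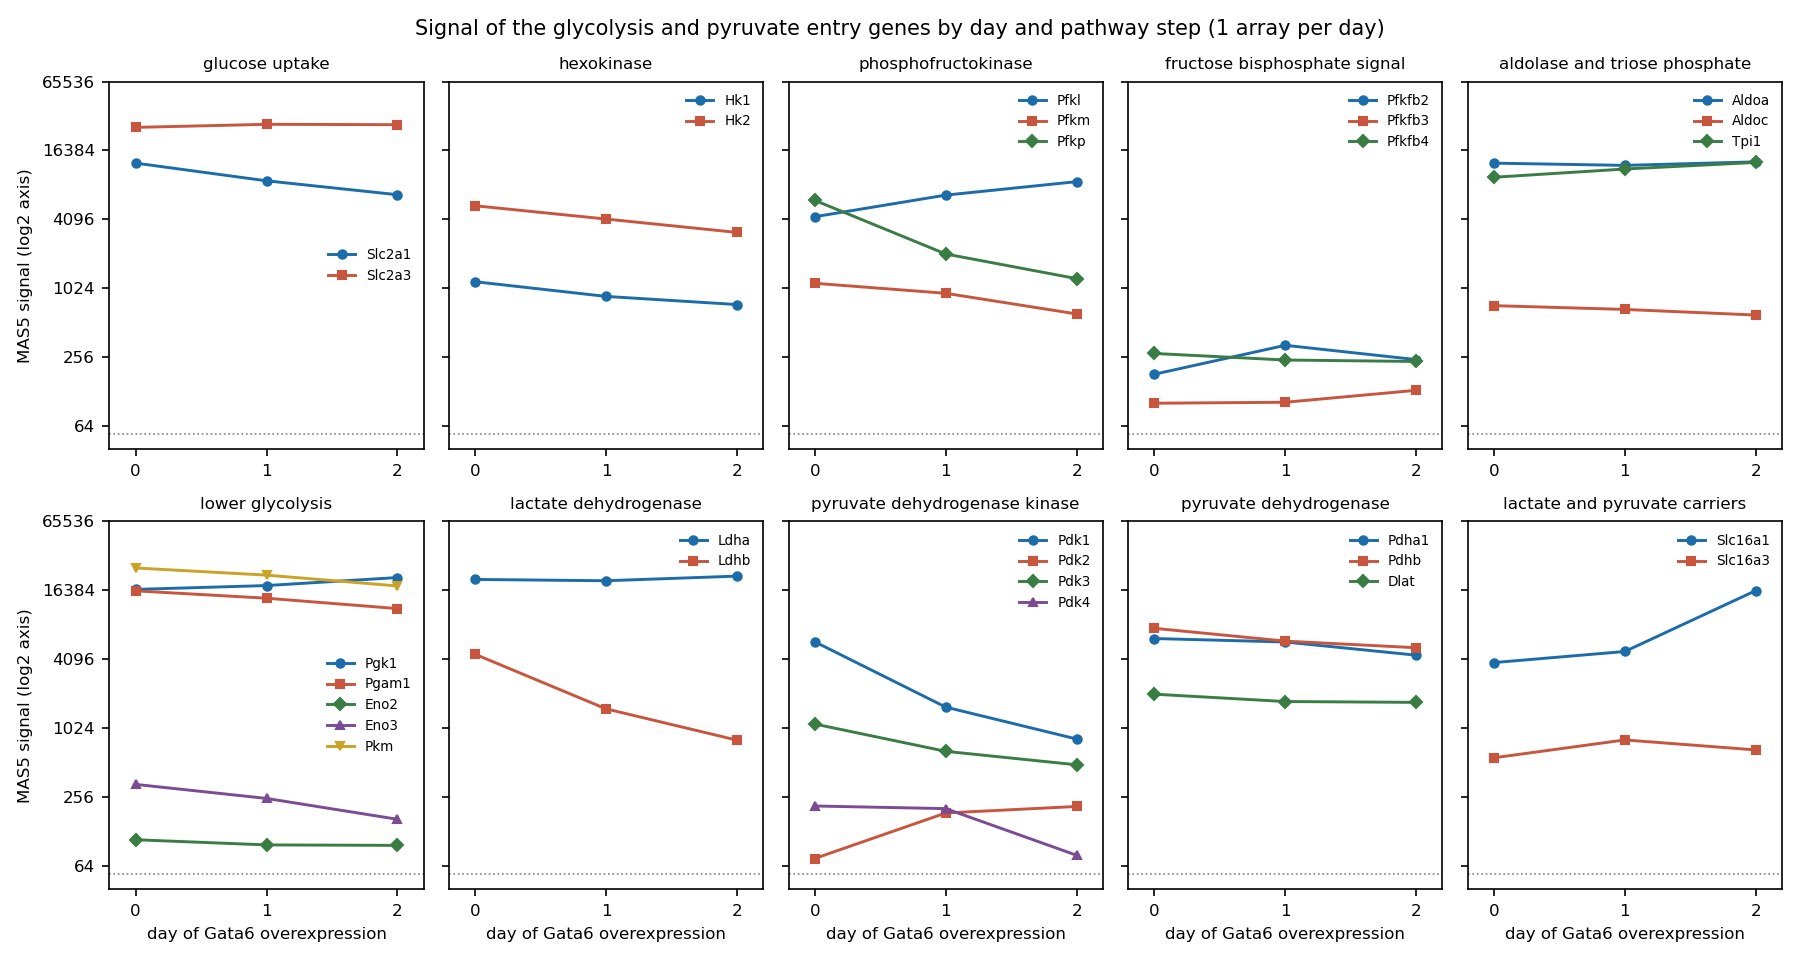
Signal of each of the 29 genes on days 0, 1 and 2 (x axis), on a log2 axis of MAS5 signal, in 1 panel per pathway step, with 1 array per day and the floor of 54.0 as a dotted line. Pfkp, Ldhb and Pdk1 drop at both steps and Slc16a1 climbs on day 2 to 16256. Ldha, Aldoa and Slc2a3 run nearly flat on the probe set chosen, whereas the other Slc2a3 probe sets were higher, as given in the text. Heights of different genes cannot be compared.

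Glucose uptake was read first. Slc2a1 encodes GLUT1, the widespread glucose carrier. Slc2a1 read 12682, 8880.2 and 6713 on days 0, 1 and 2, so each day lay below the one before. The log2 ratio against day 0 was -0.51 on day 1 and -0.92 on day 2 (SD 0.13), which is 1.89-fold lower on day 2 and short of 2-fold. Its other probe sets both passed 2-fold, the lowest at -1.24. As a mean over its 3 probe sets Slc2a1 stood at -1.12.

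Slc2a3 encodes GLUT3, a high-affinity carrier. Its brightest probe set read 26025, 27684 and 27485, nearly flat, with log2 ratios of 0.09 on day 1 and 0.08 on day 2. The other 3 probe sets, all dimmer, gave more: their ratios reached 1.01 on day 1 and 0.83 on day 2. From day 0 signals of 15106, 7872 and 3532 their day 2 ratios were 0.43, 0.71 and 0.83, higher the dimmer the probe set. The dimmest of them read 3532, 7099 and 6292. The chosen probe set is of a design that can also bind related transcripts, as are all 5 for Aldoa below. On day 2 the log2 ratio of Slc2a3 exceeded that of Slc2a1 by 1.00 (SD of the difference 0.18) on the probe sets chosen. That SD does not cover the spread of the Slc2a3 probe sets, from 0.08 to 0.83. The Pgk1 probe sets, with day 0 signals from 8084 to 16654, spread less, from 0.32 to 0.40. Whether very bright probe sets understate differences was not tested. This limits the ratios of Ldha, Pkm and Pgam1, each read by 1 bright probe set.

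Hexokinase traps glucose in the cell by phosphorylation. Hk1, the housekeeping isozyme, read 1165, 867 and 736, and Hk2, the isozyme known to respond to insulin and hypoxia, read 5374.5, 4114 and 3142. Both read lower on each day than on the one before and stayed within 2-fold of day 0, with day 2 log2 ratios of -0.66 (SD 0.37) and -0.77 (SD 0.21). The difference between them, Hk2 minus Hk1, was -0.11 and within its SD of 0.42. The 2 Hk1 probe sets parted on day 2, the other one standing at -1.49 with signals of 1033, 800.0 and 367, and as their mean Hk1 was at -1.08. Hkdc1, a related hexokinase-like gene outside the set, went the other way, with 60.9, 255 and 1739.5. Its day 0 signal lay below 72.3, the 95th percentile of olfactory and vomeronasal receptor genes that such cells should not express. Its ratio of day 2 over day 0, 28.6-fold, is therefore not exact. A second Hkdc1 probe set stayed under the floor.

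Phosphofructokinase, the main control point of the pathway, had isozymes that moved in opposite directions. Pfkl, the liver-type subunit, read 4311 on day 0, 6658 on day 1 and 8732 on day 2. It was within 2-fold on day 1 (log2 ratio 0.63) and 2.03-fold higher on day 2 (1.02, SD 0.13). A second probe set gave 0.88 on day 2. The third, at 70.3, 214 and 275, gave 1.97 from a day 0 signal below the receptor background of 72.3, so that ratio is not exact. Pfkp, the platelet-type subunit, read 5996, 2037 and 1240.0. It was already 2.94-fold lower on day 1 and 4.84-fold lower on day 2 (-2.27, SD 0.21), with all 3 probe sets lower, from -2.27 to -1.28. Pfkm, the muscle-type subunit, read 1129, 923 and 609 and stood at -0.89 (SD 0.37). The log2 ratios of Pfkl and Pfkp were 2.18 apart on day 1 and 3.29 apart on day 2 (SD 0.25), the widest gap among the isozyme pairs outside the kinases.

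Promoters of the genes that moved apart are shown as a record of the sequence near their starts, since they hold letters often searched for in glycolytic genes. They are the 250 bases before the first start listed per gene, taken from RefSeq, build GRCm38.p6. Capitals mark ACGTG and GCGTG, the cores of the hypoxia response element, on either strand. ACGTG lies within the E-box CACGTG, which reads the same on both strands and so counts as 2 matches. The Pfkl window is chr10:78009808-78010057 on the minus strand and the Pfkp window is chr13:6648772-6649021 on the minus strand.
Pfkl: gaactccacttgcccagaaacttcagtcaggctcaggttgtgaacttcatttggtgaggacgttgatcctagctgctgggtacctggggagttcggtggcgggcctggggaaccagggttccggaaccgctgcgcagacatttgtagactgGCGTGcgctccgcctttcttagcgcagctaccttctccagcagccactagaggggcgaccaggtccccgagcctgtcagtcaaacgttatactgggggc
Pfkp: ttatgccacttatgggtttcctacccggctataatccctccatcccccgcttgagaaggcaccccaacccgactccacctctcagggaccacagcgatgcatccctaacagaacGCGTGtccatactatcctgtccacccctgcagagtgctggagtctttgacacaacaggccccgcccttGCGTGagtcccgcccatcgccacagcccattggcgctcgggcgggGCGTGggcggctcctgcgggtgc
The Pfkl window held 1 match and the Pfkp window 3, all of the GCGTG form. Either core was present in 22 of the 28 members with a listed promoter and in 38.6% of the 27025 promoters in the table, 1 per gene. Both cores contain the letters CG, and the 2 groups of promoters were not matched for base composition. A match is a run of letters and not a shown binding site. The motif AGATAA, known to be bound by Gata factors, was searched on both strands. It was in 2 of the 28, Pfkm and Pdk4, and in 10.3% of all. Other forms of a Gata site were not searched, so a window without AGATAA is not shown to lack one.

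The bifunctional enzymes that make or remove fructose 2,6-bisphosphate, the activator of phosphofructokinase, were dim. Pfkfb2 read 181, 324 and 243, highest on day 1, with log2 ratios of 0.84 on day 1 and 0.42 on day 2 (SD 0.37). Its other 3 probe sets lay under the floor on day 0, so their day 1 ratios of 0.61 to 1.55 are taken against the floor. The mean over the 4 probe sets, 1.09 on day 1, rests on those 3. Pfkfb3 read 101, 103 and 131, and its probe sets had opposite signs on day 2, at -0.39 and 0.38 (SD 0.49). Pfkfb4 read 275, 241 and 234. None of the 3 differed 2-fold from day 0 on the probe set chosen.

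The reactions in the middle of the pathway changed little. Aldoa, the main aldolase, read 12671.5, 12116 and 13005, and its 5 probe sets had day 2 log2 ratios from -0.40 to 0.19. Aldoc, the brain-type aldolase, read 720, 667 and 596. Tpi1, which interconverts the triose phosphates, read 9538, 11259 and 12858, each day above the one before, with a day 2 log2 ratio of 0.43 (SD 0.13). Its 3 probe sets gave 0.43 to 0.55. Pgk1, the first ATP-yielding enzyme, read 16654, 17992 and 21140.1 (0.34, SD 0.13), with probe sets from 0.32 to 0.40.

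Gapdh had no probe set of its own apart from the array's controls. Those for its 3' end read 33549, 30715 and 28412, with a day 2 log2 ratio of -0.24, and those for its 5' end and middle gave -0.20 and -0.18. The brightest probe set shared with Gapdh pseudogenes read 33453.5, 31315 and 30298. All of these lay within 2-fold of day 0.

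Pgam1, phosphoglycerate mutase, and Pkm, which encodes the M1 and M2 pyruvate kinases, both read lower on each day than on the one before. Pgam1 read 16174, 13950.3 and 11318 (day 2 log2 ratio -0.52, SD 0.13), and Pkm read 25639, 22199 and 17850.2 (-0.52, SD 0.13). With the scaling used, both differences are several times the SD between probe sets yet within 2-fold, and each gene had 1 probe set. That SD leaves out the choice of scaling and any understating of differences at bright signals, which was not tested. With loess scaling, an alternative given below, the day 2 log2 ratios were -0.36 for Pgam1 and -0.34 for Pkm. The probe set does not tell the Pkm splice forms apart here, since no file gives its position. The enolases Eno2, of neurons, and Eno3, of muscle, were dim. Eno2 read 108, 97.3 and 96.4. Eno3 read 329, 248 and 163, at 2.02-fold lower on day 2 (-1.01, SD 0.37), and adding a pseudocount of 16 instead of using a floor gave -0.94, short of 2-fold.

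**Figure D2:**
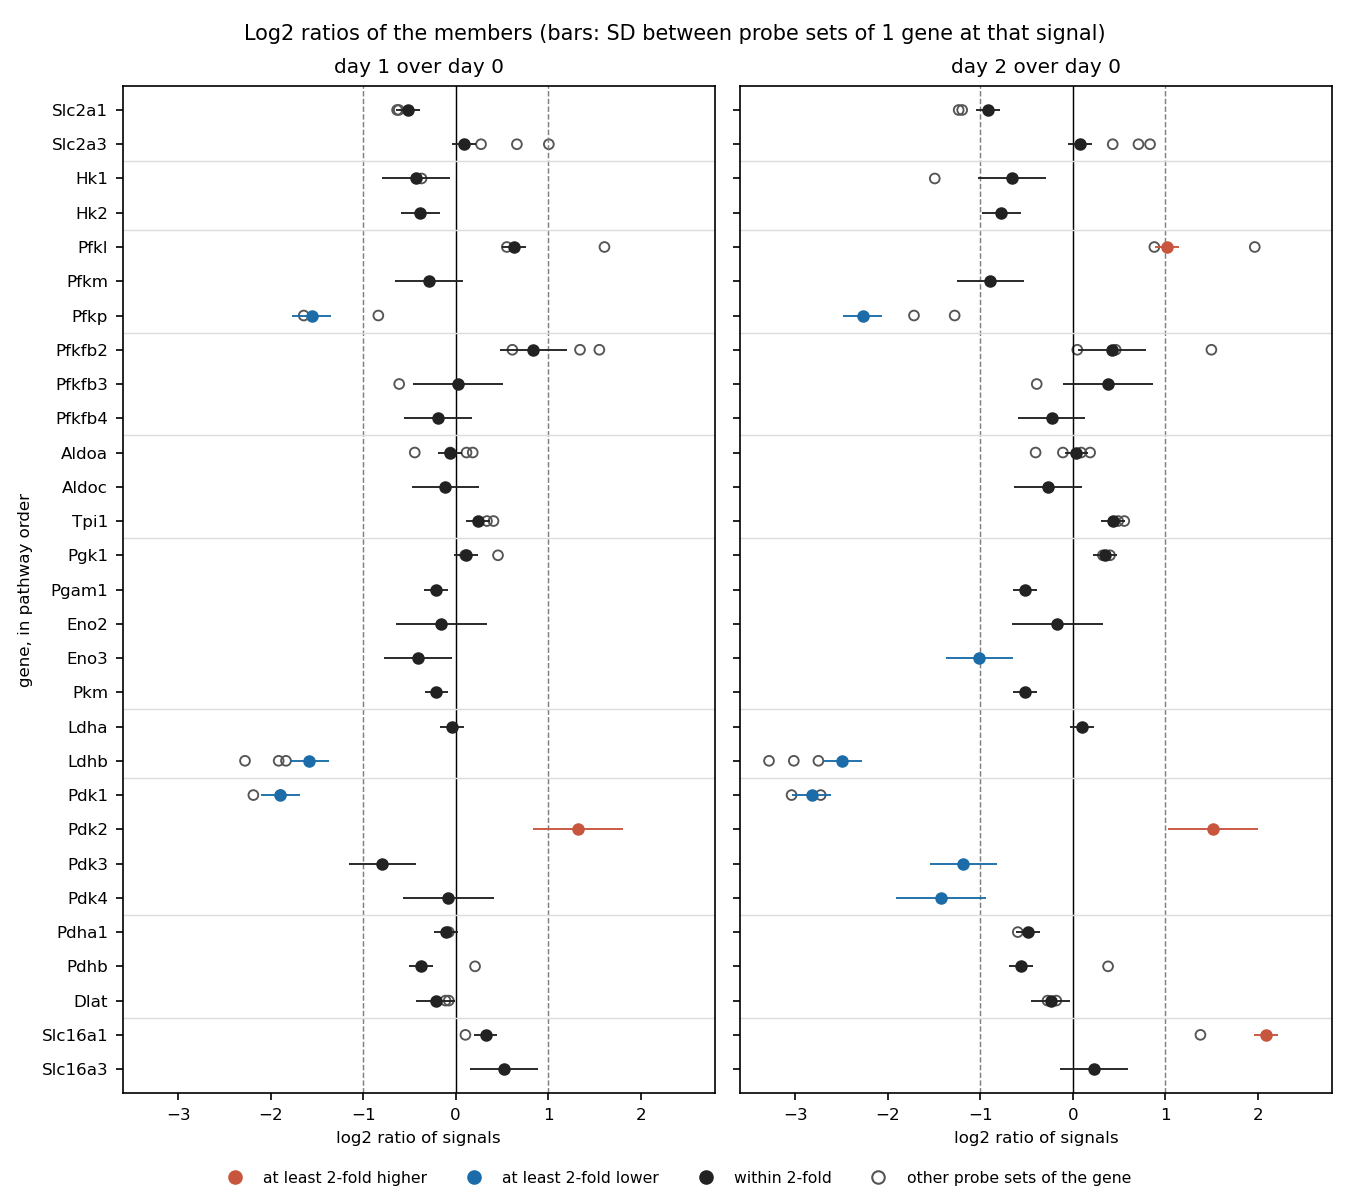
Log2 ratio of each gene (y axis, in pathway order) for day 1 over day 0 (left) and day 2 over day 0 (right), with filled points for the chosen probe set, bars for the SD between probe sets of 1 gene at that signal, open points for the gene's other probe sets above the floor, and dashed lines at 2-fold. On day 2 the Ldhb and Pdk1 probe sets all lie beyond -2, those of Slc16a1 beyond 1, and Slc2a3 and Hk1 show the disagreement between probe sets given in the text.

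Lactate dehydrogenase interconverts pyruvate and lactate, and its A and B chains form mixed tetramers, the A chain being known for favouring lactate production and the B chain for favouring pyruvate. Ldha read 20352 on day 0, 19822 on day 1 and 21755 on day 2. It was nearly flat, with log2 ratios of -0.04 and 0.10 (SD 0.13) against day 0. With loess scaling its day 2 ratio was 0.27. Ldha was read by 1 bright probe set. Whether that understates a difference, and with it alters the gap to Ldhb, was not tested. Ldhb read 4513, 1504 and 801. It was 3.0-fold lower on day 1 and 5.63-fold lower on day 2 (-2.49, SD 0.21). All 4 Ldhb probe sets were lower, from -2.28 to -1.59 on day 1 and from -3.29 to -2.49 on day 2, so the chosen one gave the smallest difference. The gap between Ldha and Ldhb was 1.55 on day 1 and 2.59 on day 2 (SD 0.25).

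The promoter windows of the A and B genes are set side by side because only the second gene's signal moved. The Ldha window is chr7:46845554-46845803 on the plus strand and the Ldhb window is chr6:142507958-142508207 on the minus strand, with the same letters in capitals as above.
Ldha: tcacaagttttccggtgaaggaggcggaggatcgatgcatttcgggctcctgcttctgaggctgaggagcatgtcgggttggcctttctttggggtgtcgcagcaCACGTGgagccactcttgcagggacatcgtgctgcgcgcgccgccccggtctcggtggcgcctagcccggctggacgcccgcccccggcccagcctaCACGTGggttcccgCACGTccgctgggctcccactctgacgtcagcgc
Ldhb: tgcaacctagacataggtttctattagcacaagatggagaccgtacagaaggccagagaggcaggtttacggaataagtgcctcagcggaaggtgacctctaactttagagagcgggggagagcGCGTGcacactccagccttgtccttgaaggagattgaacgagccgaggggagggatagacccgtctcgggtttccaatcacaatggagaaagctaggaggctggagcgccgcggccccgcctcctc
The Ldha window held 5 matches, all of the ACGTG form, of which 4 come from its 2 E-boxes, and the Ldhb window held 1, of the GCGTG form. E-boxes were present in 5 of the 28 members' windows and in 6.05% of all, again without matching for base composition.

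The kinases that phosphorylate and switch off pyruvate dehydrogenase all differed at least 2-fold on day 2, in both directions. Pdk1, known as a target of the hypoxia-inducible factor, read 5806 on day 0, 1559 on day 1 and 820 on day 2. It had the lowest ratio of the 29 genes, 3.73-fold lower on day 1 and 7.08-fold lower on day 2 (-2.82, SD 0.21). The 3 Pdk1 probe sets above the floor gave -3.04 to -2.73 on day 2, and the fourth lay under the floor on each array. Pdk3 read 1109, 640 and 488, and was 2.27-fold lower on day 2 (-1.18, SD 0.37).

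Pdk4, which is known to be induced by fasting, read 213, 202 and 79.0. It was flat on day 1 (-0.08) and 2.69-fold lower on day 2 (-1.43, SD 0.49), when it lay close to the receptor background of 72.3. Pdk2 went the other way, with 74.0, 185 and 211. It was 2.50-fold higher on day 1 and 2.85-fold higher on day 2 (1.51, SD 0.49), from a day 0 signal near that background. Both dim genes had 1 probe set and lost 2-fold with the floor at the 60th percentile, where the day 2 log2 ratio was 0.53 for Pdk2 and -0.54 for Pdk4. On day 2 the log2 ratio of Pdk2 exceeded that of Pdk1 by 4.34 (SD 0.53), and that of Pdk3 exceeded Pdk1 by 1.64 (SD 0.42).

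The windows before the starts of the lowest and highest kinase are given as a pair. The Pdk1 window is chr2:71872974-71873223 on the plus strand and the Pdk2 window is chr11:95041372-95041621 on the minus strand.
Pdk1: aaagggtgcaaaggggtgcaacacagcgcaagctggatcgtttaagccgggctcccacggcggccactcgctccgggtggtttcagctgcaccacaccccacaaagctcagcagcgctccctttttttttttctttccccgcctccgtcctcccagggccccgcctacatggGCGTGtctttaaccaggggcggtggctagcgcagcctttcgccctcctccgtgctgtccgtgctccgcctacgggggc
Pdk2: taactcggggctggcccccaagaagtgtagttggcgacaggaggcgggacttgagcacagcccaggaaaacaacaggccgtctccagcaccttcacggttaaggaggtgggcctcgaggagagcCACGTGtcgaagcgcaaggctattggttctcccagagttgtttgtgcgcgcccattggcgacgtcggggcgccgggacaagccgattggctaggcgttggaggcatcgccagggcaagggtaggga
Pdk1 held 1 match, of the GCGTG form, and Pdk2 held 2, which are both strands of 1 E-box.

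The complex that these kinases act on was less affected. Pdha1, its catalytic alpha subunit, read 6196, 5779 and 4431 (day 2 log2 ratio -0.48, SD 0.13), and Pdhb, the beta subunit, read 7610.5, 5881 and 5150 (-0.56, SD 0.13). Dlat, the acetyltransferase core, read 2021.5, 1743 and 1714 (-0.24, SD 0.21). All were within 2-fold and lower on day 2. A dim second Pdhb probe set, at 214, 247 and 278, had a ratio of 0.38. The difference Pdhb minus Pdha1 was -0.08, within its SD of 0.18.

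Slc16a1 encodes MCT1, which carries lactate and pyruvate with a proton across the plasma membrane. It read 3817 on day 0, 4773.5 on day 1 and 16256 on day 2, so the day 1 array resembled day 0 and the day 2 array stood apart. It was 4.26-fold higher on day 2 than on day 0 (2.09, SD 0.13) and 3.41-fold higher than on day 1 (1.77), the highest ratio of the set in both comparisons. Its second probe set, at 23.0, 58.1 and 140, was higher on day 2 as well (1.38, with day 0 at the floor). Only 15.4% of its day 2 log2 difference was present on day 1, against 67.2% for Pdk1, 68.5% for Pfkp and 63.6% for Ldhb. Slc16a3 encodes MCT4, known for lactate export in glycolytic cells, and read 562, 805 and 658 (0.23, SD 0.37). The log2 ratio of Slc16a1 exceeded that of Slc16a3 by 1.86 on day 2 (SD 0.39). Bsg, the chaperone of both carriers and outside the set, read 5971, 6970 and 9986, at 0.74.

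The Slc16a1 window, shown for the gene with the highest ratio, is chr3:104638414-104638663 on the plus strand.
Slc16a1: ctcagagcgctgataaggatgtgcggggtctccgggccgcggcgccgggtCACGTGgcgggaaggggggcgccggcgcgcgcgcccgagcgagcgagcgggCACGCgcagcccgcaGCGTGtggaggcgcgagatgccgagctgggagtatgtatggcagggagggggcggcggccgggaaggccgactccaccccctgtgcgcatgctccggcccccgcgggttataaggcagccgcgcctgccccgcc
It held 4 matches, 2 of each form, with the ACGTG pair from 1 E-box.

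**Figure D3:**
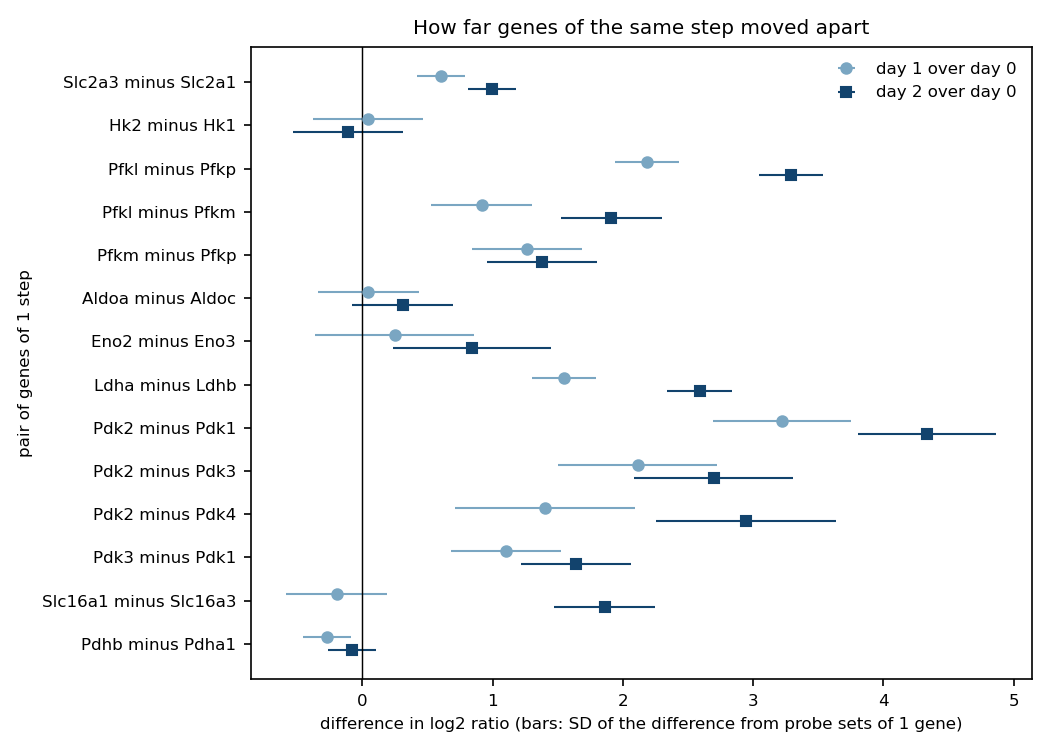
Difference in log2 ratio between 2 genes of the same step (x axis), first gene minus second, for day 1 over day 0 (circles) and day 2 over day 0 (squares), with bars for the SD of the difference from probe sets of 1 gene. Pdk2 minus Pdk1 reaches 4.34, Pfkl minus Pfkp 3.29 and Ldha minus Ldhb 2.59 on day 2, and on the same day Hk2 minus Hk1 and Pdhb minus Pdha1 sit within 1 SD of 0.

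Neighbouring pathways were read from lists, to be set against the 11.0% of all genes higher and 10.1% lower on day 2 than on day 0. Among 20 other glycolytic isozymes and glucose carriers, 13 could be compared on day 2 against day 0. Hkdc1 was higher, 0 were lower and the median log2 ratio was 0.29. The next widest were Gapdhs, the sperm-type dehydrogenase (73.1, 75.7 and 138), and Ldhd, a D-lactate dehydrogenase (91.1, 66.9 and 20.2), both within 2-fold after the floor. The rest of mitochondrial pyruvate entry had 0 of 6 genes higher or lower, with a median of -0.42. Mpc1, a subunit of the mitochondrial pyruvate carrier, read 2371, 1285 and 1544 and stood at -0.62. Pdp1, a phosphatase that switches pyruvate dehydrogenase back on, read 230, 142 and 148, and Pdhx, a structural subunit, read 997, 971 and 670.

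Gluconeogenesis runs several of these steps in reverse. Of 6 genes, 2 were higher on day 2 and 1 lower (median 0.15). Fbp2, the muscle-type fructose bisphosphatase that opposes phosphofructokinase, read 296 on day 0, 4902 on day 1 and 1494 on day 2. It peaked on day 1, 16.5-fold above day 0, and was 5.04-fold above it on day 2. Slc37a4, the glucose 6-phosphate carrier of the endoplasmic reticulum, read 260, 735 and 733, and Pck2, the mitochondrial PEP carboxykinase, read 1606, 1132 and 718 and was 2.24-fold lower.

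Of 9 pentose phosphate genes, Rpia, which isomerises ribose 5-phosphate, was higher on day 2 (480, 1730 and 1676) and Prps1, which makes PRPP from it, lower (5042, 1973 and 2308), with a median of -0.07. Taldo1, transaldolase, read 7834, 5929 and 4701, within 2-fold. Serine and glycerol branch genes had 0 of 8 higher or lower and a median of -0.01, the widest being the serine hydroxymethyltransferases Shmt1 (3318, 1863 and 1863) and Shmt2 (5279, 3285 and 3288) and the glycerol phosphate dehydrogenase Gpd2 (3844, 2643 and 2632). In the citric acid cycle list Aco1, a cytosolic aconitase (1642, 2297 and 3349), was the only 1 of 18 past 2-fold, and the median was 0.04. The succinate dehydrogenase subunits Sdhd (4491, 4861 and 6413) and Sdhb (7642, 5865.5 and 5453.5) had the next widest ratios, in opposite directions. The sampled respiratory chain genes had 0 of 18 higher or lower and a median of -0.17. The widest were Cox7a1 (687, 794 and 371) and Cox4i2 (58.1, 64.4 and 79.7), subunits of cytochrome oxidase, and Ndufs1 of complex I (5040.1, 4723 and 3319).

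**Figure D4:**
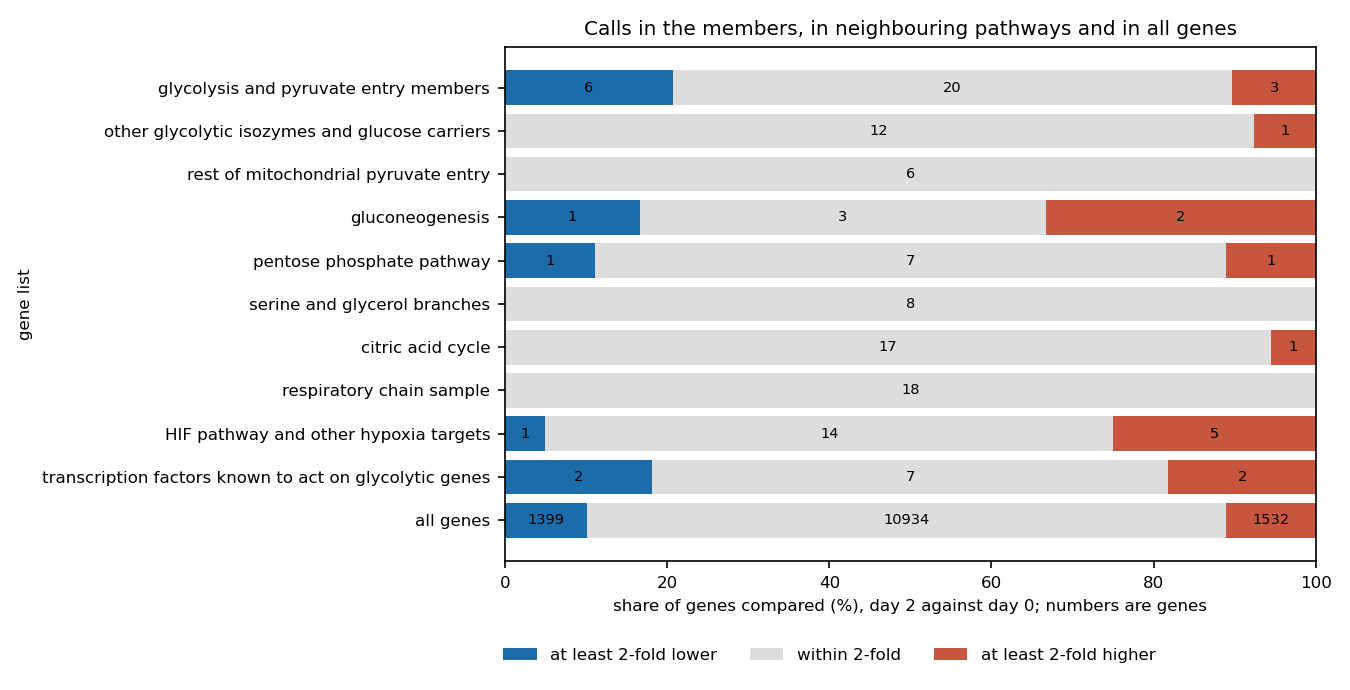
Share of genes compared (x axis, %) that were at least 2-fold lower, within 2-fold, or at least 2-fold higher on day 2 than on day 0, for the set of 29, 9 lists of related genes and all genes (rows), with numbers of genes printed in the bars. The set of 29 has 6 lower and 3 higher, the citric acid cycle 1 higher of 18 and the respiratory chain sample 0 of 18.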

How the data were processed

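Total RNA was extracted with Trizol and turned into biotinylated cRNA for Affymetrix arrays, per the labels' protocols. The deposited intensity values are linear MAS5 signals per probe set, made by the authors per the submitters' processing notes. No label names a scaling target or a MAS5 version. The 2% trimmed means of the columns were 497, 498 and 498, near-equal as after scaling to 1 target, which treats total signal as the same on each day.

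Of 45101 probe sets, 64 were controls and were left out, and 34945 of the others were annotated to 1 gene. For 34741 of these the platform annotation's gene was found by identifier in a RefSeq table of GRCm38.p6. Each array was rescaled to the same trimmed mean, signals under the 40th percentile of all values (54.0) were set to it, and log2 was taken (Python 3.11.15, pandas 2.3.3, numpy 2.4.6). The brightest probe set, by mean log2 value, stood for its gene. A call needed a 2-fold difference with the brighter array above the floor. The scripts were checked on simulated arrays. With 1 array per day, no p-value is given, and precision is limited by having so few arrays. The error came from the brightest 2 probe sets of each gene (16098 pairs over the comparisons). The genes named are the 29 read, Gata6, Pou5f1 and Nanog as a check, and of each related list the 3 widest on day 2 against day 0. Bsg, Epas1, Egln1, Kdm3a, Hif1a, Mlxip, Klf4, Dppa3 and the fibroblast, trophectoderm and neural ectoderm markers were named after their values were seen. The members and lists were chosen with earlier results of these data known. Alternatives changed the scaling, the floor, the probe set and the fold threshold.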

Additional observations from a re-analysis of the deposited data

How the results depend on the processing

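The called genes kept their calls with values as deposited, quantile normalization, loess scaling, a floor at the 25th percentile and the probe set chosen before the floor, and the counts of calls were equal to those reported. With the floor at the 60th percentile, 0 genes were higher on day 1 against day 0 and 0 lower on day 2 against day 1, since Pdk2 and Pdk4 then lost their calls. At that floor, day 2 against day 0 gave 2 higher and 5 lower of the 27 genes left. Over all genes it gave 1119 higher and 943 lower, and day 2 against day 1 gave 272 lower. For the changed floors and the means over probe sets, the number of all genes compared is not given. Their counts over all genes are therefore not shares. Over all genes on day 1 against day 0, a floor at the 25th percentile gave 1256 higher and 1618 lower and one at the 60th 539 and 517, against 816 and 895 reported. As means over probe sets, 2 genes were higher on day 1 against day 0, Pfkfb2 being added, beside 628 of all genes. On day 2 against day 0, 8 in place of 6 were lower, Slc2a1 and Hk1 being added, beside 1098 of all genes. A 1.5-fold threshold gave 3 of the 29 higher on day 1 against day 0, beside 1815 of 13602 genes. It gave 10 lower on day 2 against day 0, beside 3030 of 13865 genes, and 6 lower on day 2 against day 1, beside 1625 of 13468. A 3-fold threshold gave 0 higher on day 1 against day 0, 1 higher and 3 lower on day 2 against day 0, and 0 lower on day 2 against day 1. Over all genes those counts were 346, 720, 540 and 112, of the same numbers of genes as for the 1.5-fold threshold. The median log2 ratio on day 2 against day 0 ran from -0.48 (floor at the 60th percentile) to -0.23 (means over probe sets). Gapdh read by its control probe set, an alternative chosen after seeing the data, left the counts as they were and gave medians of -0.13, -0.25 and -0.21 for day 1 against day 0, day 2 against day 0 and day 2 against day 1. Some bright genes within 2-fold depended on the scaling. With loess scaling their log2 ratios on day 2 against day 0 were all higher than reported. Tpi1 stood at 0.57, Pgk1 at 0.51, Ldha at 0.27, Slc2a3 at 0.27 and Aldoa at 0.19. Pkm stood at -0.34, Pgam1 at -0.36 and Slc2a1 at -0.79. No called ratio changed sign under the alternatives run. No paired analysis was possible because each day has 1 array, and no array could be left out. Dim signals limit Pdk2, Pdk4, Eno2, Pfkfb3 and the probe sets under the floor, and 12 of the 29 genes have a single probe set of their own.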

Other observations

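Of 11 factors known to act on glycolytic genes, Mycn and Mlxip were at least 2-fold higher and Myc and Esrrb at least 2-fold lower on day 2 than on day 0. The median log2 ratio of the 11 was 0.40. Over all genes compared, 11.0% were higher and 10.1% lower, and with so few factors these counts say little. Mycn, a Myc family transcription factor, read 2976, 6151 and 8302 on days 0, 1 and 2 (2.79-fold higher on day 2), and a second probe set read 510, 968 and 1256, whereas the third was dim and lower (201, 65.3 and 101). Myc read 1181, 724 and 368, 3.21-fold lower on day 2. Esrrb, a nuclear receptor of ES cells, read 7223.5, 1557 and 752, and its 3 probe sets were all lower.

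Among 20 genes of the hypoxia pathway and its targets, 5 were at least 2-fold higher on day 2 than on day 0 and 1 lower, against 11.0% and 10.1% of all genes, with a median of 0.16. The collagen prolyl hydroxylase subunits P4ha2 (167, 1562 and 6323.5) and P4ha1 (298, 3319 and 5323) and the differentiation gene Ndrg1 (259, 1249 and 2836) were higher, as were Epas1 (HIF-2 alpha; 1656, 410 and 7544) and the oxygen sensor Egln1 (368, 642 and 768). Kdm3a, a histone demethylase known as a hypoxia target, was lower (6195.5, 2280.2 and 1719). Hif1a itself read 3781, 4680.0 and 4170.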
